A study of Mus musculus with 18 samples.

Results

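The RNA-seq libraries of N2A cells transfected with *Fmr1* siRNA B were compared directly with those transfected with *Fmr1* siRNA A. The comparison rests on 6 of the 18 libraries of the series, 3 for each of the *Fmr1* siRNAs, and was chosen from the sample labels alone. Neuro-2a (N2A) is an established mouse neuroblastoma line, and the groups differ in the siRNA they received. The libraries labelled fmrp siRNA A (replicates A1 to A3) and fmrp siRNA B (replicates B1 to B3) came from whole cell extracts taken 72 h after lipid transfection with a Silencer Select siRNA, a chemically modified short double-stranded RNA. The 6 libraries labelled negative control scrambled siRNA A or B, here Scramble KD, entered no fold change between the *Fmr1* siRNAs and served as a reference level, and the *Zfp598* KD libraries served only in fits and normalization over all 18 libraries and as further libraries against which replicate B1 was set. The paper states that the knockdown with each siRNA was done in triplicate, and the labels do not say whether on separate days. Because a single cell line was used, the p-values measure the spread between these knockdowns, which may be technical in part. They do not measure the spread between cell lines or between siRNAs.

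*Fmr1* encodes FMRP, an RNA-binding protein that slows translation and is lost in fragile X syndrome. An siRNA loaded into Argonaute directs cleavage of the mRNA it pairs with along its length, and can also lower mRNAs that pair only with its seed. Duplex RNA and the lipid carrier can in addition engage sensors that switch on interferon genes. For this reason studies use more than 1 siRNA per target, and a direct comparison of the pair shows which mRNAs differ although the target is the same. Here the siRNA and its letter are 1 and the same, so that a difference in the remaining FMRP and a difference in any other property of the siRNAs cannot be told apart. The letters of the Scramble siRNAs are labels that are not known to match those of the *Fmr1* siRNAs. The sign of Scramble siRNA B against A, and any departure from it, therefore depends on that naming.

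Total counts of the 6 libraries ranged from 13213653 to 14005697, of which 5.4% to 7.93% fell on the most abundant feature, which GENCODE M39 does not list. Replicates of each siRNA differed by more than counting noise in every pair (chi-square over degrees of freedom 3.44 or more), so none was a copy of another. This does not exclude technical repeats of the same RNA. Neuroblastoma markers were detected in every library, 15 to 18 of 18 per library. Replicate B1 stood apart from the other libraries before any comparison was made. It held counts for 5 of 8 Y chromosome markers with a summed level of 11.9 CPM (counts scaled to a common library size with TMM factors), whereas no Y marker had a count in the other 5 *Fmr1* KD libraries or in the 6 Scramble KD libraries. All 26 pluripotent stem cell markers had counts in B1, against 10 to 13 in the other *Fmr1* KD libraries, and their summed level was 295 CPM in B1 and 214 to 269 CPM in the others. *Pou5f1*, a transcription factor that defines pluripotent cells, had 34 counts in B1 and 0 in the other *Fmr1* KD libraries, *Zfp42* had 102 and 0, and *Sox2* had 25 and 0. Markers of epithelium summed to 12.8 CPM in B1 and to 5.29 to 8.37 CPM in the others, while those of fibroblasts (36.0 CPM, against 32.6 to 37.9) and of macrophages and microglia (3.89 CPM, against 2.59 to 3.99) did not set B1 apart. Endothelial markers summed to 114 to 117 CPM with siRNA B and 86.0 to 87.3 CPM with siRNA A, and markers of astrocytes and oligodendrocytes to 48.5 to 52.7 CPM in all 6, with 13 of 14 having counts in B1 and 8 in each of the others. Named calls that were lost without B1, and many counts of lists, are therefore given with and without it. The source of these counts in B1 was not tested.

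**Figure D1:**
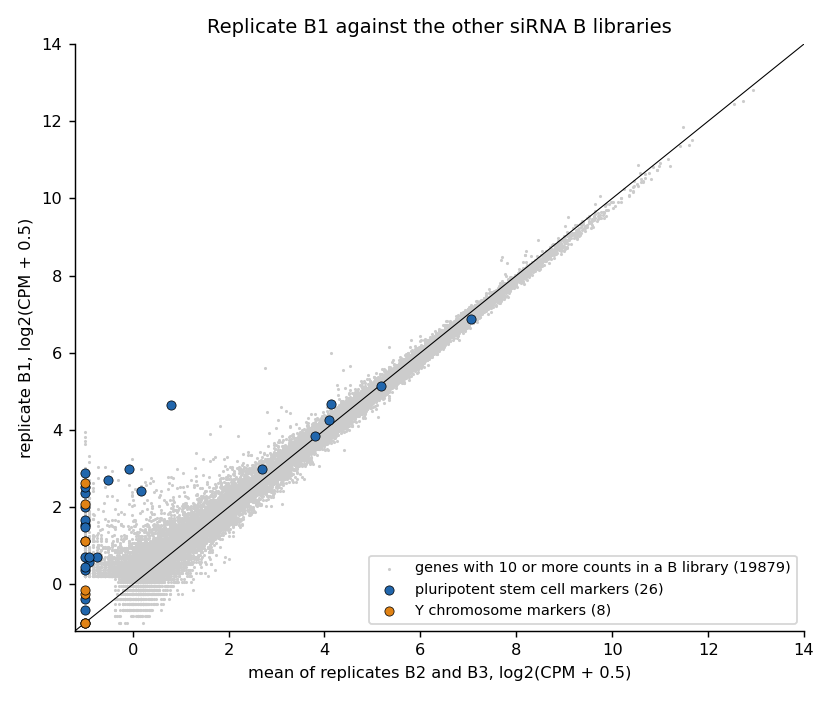
Level of each gene in replicate B1 (vertical axis) against the mean of replicates B2 and B3 (horizontal axis), both as log2(CPM + 0.5), for the 19879 genes with 10 or more counts in a siRNA B library (grey), with the 26 pluripotent stem cell markers in blue and the 8 Y chromosome markers in orange. The diagonal marks equal levels, and most of these markers stand above it at the left edge, where B2 and B3 have no or few counts.

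Both siRNAs left *Fmr1* below every Scramble KD library, but not to the same level. *Fmr1* (X:67722124-67761578 on GRCm39) was at 15.7, 22 and 16.8 CPM with siRNA A and at 27.4, 25.2 and 27 CPM with siRNA B, against 51.2 to 68.6 CPM over the 6 Scramble KD libraries. The mean was 30.2% of the Scramble KD mean with siRNA A and 44.2% with siRNA B. All siRNA B libraries were above all siRNA A libraries (log2 fold change 0.55, SE 0.12, adjusted p = 0.0014), a 1.46-fold difference that stays under the 2-fold criterion. A two-sided exact permutation test on log2(CPM + 0.5) gave p = 0.1, the smallest that 3 against 3 libraries allow. Without B1 the difference was 0.53. Between the Scramble siRNAs the log2 fold change of *Fmr1* was 0.24, and the difference between the *Fmr1* siRNAs exceeded it by 0.31 on the log2 scale, which did not pass (adjusted p = 0.22).

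The FMRP paralogs, *Zfp598*, *Id3*, *Map3k8* and *Tbr1* did not pass between the siRNAs, and *Dbh* did. *Fxr1* (log2 fold change -0.16, adjusted p = 0.0733), *Fxr2* (-0.07, adjusted p = 0.529) and *Zfp598* (-0.19, adjusted p = 0.0871) did not pass. *Id3*, an inhibitor of basic helix-loop-helix transcription factors, was at 13.1, 12.4 and 15.9 CPM with siRNA A and 14, 14.8 and 14.4 CPM with siRNA B, and both sets of libraries lay above the Scramble KD range of 2.61 to 5.91 CPM. Between the siRNAs its log2 fold change was 0.06 (adjusted p = 0.731). *Map3k8* (-0.11, adjusted p = 0.856) and *Tbr1* (-0.6, adjusted p = 0.305) had few counts and did not pass either. *Dbh*, which makes noradrenaline from dopamine, was called higher, at 0.542, 1.76 and 1.26 CPM with siRNA A and 3.49, 3.16 and 3.78 CPM with siRNA B (log2 fold change 1.55, SE 0.33, adjusted p = 0.00136), so that all siRNA B libraries stood above the Scramble KD range of 0.447 to 1.39 CPM, as did A2. *Dbh* too had few counts, with a mean of 33.8 per library. Across all tested genes 4.51% were called in either direction. Of the 15 members of a list of FMRP and its partners none was called, with 3 higher (*Fmr1*, *Ncl* 0.46 and *Cyfip2* 0.38) and 3 lower (*Caprin1* -0.31, *Mov10* -0.26 and *G3bp2* -0.51) by adjusted p alone. Of the 28 tested factors of no-go decay and ribosome collision none was called, with 2 higher (*N4bp2* 0.28 and *Ascc1* 0.23) and 10 lower by adjusted p alone.

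Across all genes, more mRNAs were higher with siRNA B than lower. Of 17776 tested genes, 631 (3.55%) were called higher with siRNA B and 170 (0.956%) lower at an adjusted p under 0.05 and more than 2-fold (edgeR quasi-likelihood test). By adjusted p alone, 3066 (17.2%) were higher and 2850 (16.0%) lower, and the median over all tested genes was 0.00152 on the log2 scale. The libraries of the siRNAs did not overlap in 44.3% of all tested genes, and in 617 of the genes called higher and 167 of those called lower. Low counts are common among the calls, since 298 of the genes called higher and 83 of those called lower had a mean of at least 50 counts per library. Without replicate B1, 595 genes (3.28% of 18158) were called higher and 226 (1.24%) lower. Of the 631, 516 were still called higher, and of the 170, 145 were still called lower. DESeq2 called 519 of the 631 and 137 of the 170 in the same direction.

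**Figure D2:**
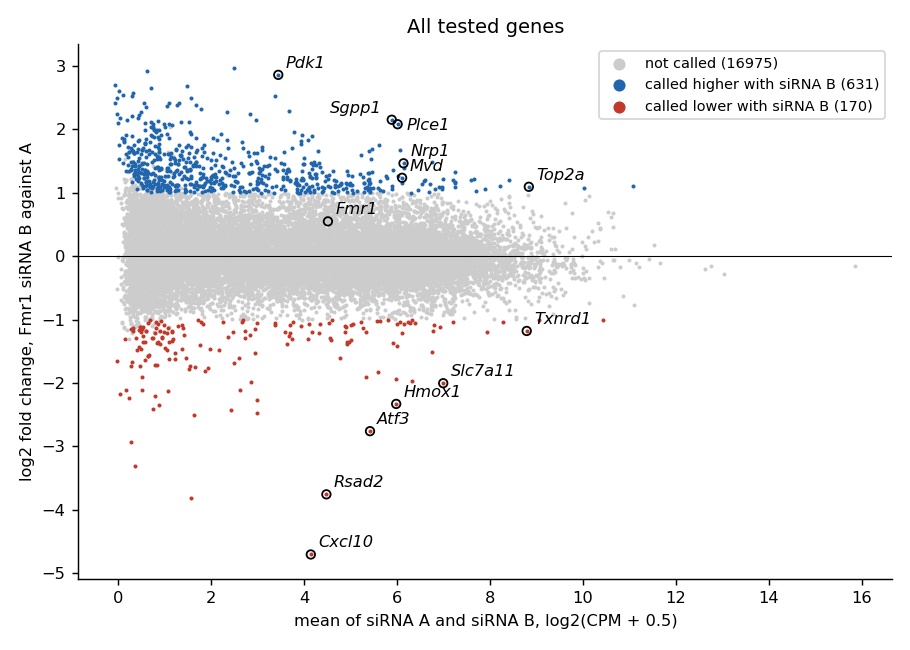
Log2 fold change of *Fmr1* siRNA B against siRNA A (vertical axis) by mean level, log2(CPM + 0.5) (horizontal axis), for the 17776 tested genes, with the 631 genes called higher in blue and the 170 called lower in red. Circles mark named genes, from *Pdk1* (2.86) at the top to *Cxcl10* (-4.71) at the bottom, and *Fmr1* lies inside the uncalled band.

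The 12 largest falls from siRNA A to siRNA B were deepest in the interferon-stimulated genes *Cxcl10* and *Rsad2*, followed by *Atf3* (-2.76). Cells switch on interferon-stimulated genes when they sense viral or other duplex RNA. *Cxcl10* (5:92494497-92496748 on GRCm39), a chemokine that attracts T cells, was at 33.7, 32.2 and 33.6 CPM with siRNA A and 1.07, 0.984 and 1.72 CPM with siRNA B (log2 fold change -4.71, SE 0.16, adjusted p = 2.90e-12). The siRNA B libraries lay inside the Scramble KD range of 0.653 to 1.76 CPM, and the siRNA A libraries far above it. *Rsad2*, which encodes the antiviral enzyme viperin, was at 47, 44 and 31.1 CPM and 2.95, 2.11 and 3.92 CPM (log2 fold change -3.76, SE 0.19, adjusted p = 3.76e-10). The ubiquitin-like protein gene *Isg15* fell from 14, 11.5 and 12.7 CPM to 2.22, 2.11 and 2.47 CPM (log2 fold change -2.48). The same held for the oligoadenylate synthetase-like genes *Oasl1* (-2.27) and *Oasl2* (-1.98), and for *B2m* (-1.01), the invariant chain of MHC class I. In all 6 of these genes every siRNA A library was above every Scramble KD library.

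Of the 42 tested members of the interferon response list, 11 were called lower with siRNA B and none higher. By adjusted p alone 21 were lower and 4 higher (*Trim25* 0.18, *Cmpk2* 0.49, *Mx2* 0.43 and *Tap1* 0.83), and the median was -0.31, beside 0.00152 over all tested genes. Without B1, 13 were called lower. The mean of the siRNA A libraries was above the Scramble KD range in 21 members, and that of siRNA B in 8. The Scramble siRNAs differed in this list as well, with a median of -0.44 for Scramble siRNA B against A, and the difference between the *Fmr1* siRNAs was more negative than theirs in 8 members and more positive in 4. For this and later lists, the share of all tested genes with a mean outside the Scramble KD range is not given here. For scale, the siRNA A mean was above that range in 34 of 56 clustered protocadherins and in 5 of 84 cytosolic ribosomal proteins.

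The promoters of the strongest of these genes are shown because they fell together, and because interferon response factors bind a short repeat in such promoters. The sequences are the 250 bases before the transcription start from RefSeq on GRCm38.p6, written 5′ to 3′ on the gene's strand, with each match to GAAANNGAA on either strand in capitals. *Cxcl10* (chr5:92348890-92349139, minus strand), *Isg15* (chr4:156200819-156201068, minus strand) and *Rsad2* (chr12:26456453-26456702, minus strand) read:
Cxcl10: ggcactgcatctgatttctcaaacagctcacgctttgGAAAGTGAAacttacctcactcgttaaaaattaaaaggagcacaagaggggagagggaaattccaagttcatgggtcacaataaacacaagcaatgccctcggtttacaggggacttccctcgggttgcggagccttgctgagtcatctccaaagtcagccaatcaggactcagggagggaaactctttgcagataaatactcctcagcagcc
Isg15: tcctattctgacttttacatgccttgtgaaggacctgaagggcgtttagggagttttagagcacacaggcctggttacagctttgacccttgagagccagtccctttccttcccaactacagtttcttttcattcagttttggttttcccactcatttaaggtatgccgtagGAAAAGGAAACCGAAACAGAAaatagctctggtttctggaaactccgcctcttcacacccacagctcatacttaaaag
Rsad2: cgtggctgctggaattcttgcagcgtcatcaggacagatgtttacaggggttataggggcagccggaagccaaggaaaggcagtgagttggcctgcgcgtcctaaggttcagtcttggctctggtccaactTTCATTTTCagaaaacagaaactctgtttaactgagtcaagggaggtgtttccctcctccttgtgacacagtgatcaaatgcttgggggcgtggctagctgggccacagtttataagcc
*Cxcl10* and *Rsad2* held 1 match each, and *Isg15* held 3 that overlap. Over the 300 bases from 250 before to 50 after the start, 14 of the 32 list members with a promoter held a match (43.8%), beside 8.1% of the 10869 tested genes with a promoter. A match is a description of the letters and not a binding site.

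Targets of NF-kB, the transcription factor of inflammatory signalling, were lower with siRNA B in 8 of 19 tested members by adjusted p and higher in none, while 11 did not pass. *Nfkbia*, the inhibitor that NF-kB itself induces, was at 149, 140 and 161 CPM with siRNA A and 70.1, 70.7 and 71.9 CPM with siRNA B (log2 fold change -1.08, SE 0.07, adjusted p = 7.33e-09), and both sets were above the Scramble KD range of 35.7 to 62 CPM. *Csf1*, a growth factor for macrophages, fell from 46.6, 45.1 and 44.9 CPM to 19.4, 16.9 and 18.4 CPM (log2 fold change -1.32). These were the called members, and the median of the list was -0.28. Between the Scramble siRNAs it was -0.4, and the difference between the *Fmr1* siRNAs departed from theirs upwards in 3 members and downwards in 3. *Tnfrsf9*, a TNF receptor family member on activated T cells, was outside this list and among the 12 largest falls (-2.42), as was the ubiquitin ligase gene *Neurl3*. The latter was at 124, 116 and 139 CPM with siRNA A and 31.5, 30.5 and 34.4 CPM with siRNA B (log2 fold change -1.97, SE 0.08, adjusted p = 4.72e-11).

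Stress genes downstream of ATF4, the transcription factor translated when eIF2α is phosphorylated, were lower with siRNA B. *Atf3* (1:190902493-190950241 on GRCm39), itself a stress transcription factor, was at 77.8, 74.8 and 68.7 CPM with siRNA A and 10.1, 11 and 11.4 CPM with siRNA B (log2 fold change -2.76, SE 0.09, adjusted p = 2.90e-12). Here the Scramble KD libraries at 24.3 to 40.0 CPM lay between the siRNAs. *Ppp1r15a*, whose product dephosphorylates eIF2α, was at 72.2, 70.2 and 80.1 CPM and 19.4, 22.1 and 21.2 CPM (log2 fold change -1.82, SE 0.09, adjusted p = 2.06e-10), with siRNA A inside the Scramble KD range of 42.5 to 87.6 CPM and siRNA B below it. *Ddit3*, which encodes CHOP, was at 94.7, 93.3 and 97.8 CPM and 39.1, 39.9 and 43.7 CPM (log2 fold change -1.22), and all 6 libraries were below the Scramble KD range of 108 to 181 CPM.

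Of the 21 tested ATF4 stress regulators, 6 were called lower, the other 3 being *Sqstm1* (-1.01, an autophagy receptor), *Cebpb* (-1.07) and *Nupr1* (-1.2). By adjusted p 16 were lower and *Ndrg1* (0.94) was higher, with a median of -0.72. Without B1, 4 were called lower, as *Sqstm1* (-0.98) and *Cebpb* (-0.93) went under 2-fold. The mean of siRNA B was below the Scramble KD range in 20 of the 21 and that of siRNA A in 9.

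The metabolic targets of ATF4, which make amino acids and charge tRNAs, fell by smaller amounts but nearly throughout. Of 38 tested members 30 were lower by adjusted p, 2 were higher (*Slc43a1* 0.95 and *Cbs* 1.44), and the median was -0.45. *Aldh1l2*, a mitochondrial folate enzyme, was at 348, 350 and 324 CPM with siRNA A and 139, 159 and 146 CPM with siRNA B (log2 fold change -1.2, SE 0.07, adjusted p = 2.05e-09). The siRNA B mean was below the Scramble KD range in 26 members, whereas the siRNA A mean was within it in 27. The difference between the *Fmr1* siRNAs was more negative than that between the Scramble siRNAs in 25 of the 38.

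*Slc7a11* (3:49846975-50398070 on GRCm39), the cystine importer that both ATF4 and NRF2 control, departed from this. It was at 220, 228 and 163 CPM with siRNA A and 51.6, 50.5 and 49.9 CPM with siRNA B (log2 fold change -2.0, SE 0.1, adjusted p = 5.39e-10), so that both were above the Scramble KD range of 33.6 to 45.6 CPM. The promoters of *Slc7a11* (chr3:50443614-50443863, minus strand) and *Atf3* (chr1:191183334-191183583, minus strand) are shown in the same way, with matches to TGATGNAA, the composite element of C/EBP and ATF factors, in capitals:
Slc7a11: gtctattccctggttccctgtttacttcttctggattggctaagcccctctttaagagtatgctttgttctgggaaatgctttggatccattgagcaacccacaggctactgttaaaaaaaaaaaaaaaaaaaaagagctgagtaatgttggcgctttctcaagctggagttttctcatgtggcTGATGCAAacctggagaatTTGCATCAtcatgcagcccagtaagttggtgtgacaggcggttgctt
Atf3: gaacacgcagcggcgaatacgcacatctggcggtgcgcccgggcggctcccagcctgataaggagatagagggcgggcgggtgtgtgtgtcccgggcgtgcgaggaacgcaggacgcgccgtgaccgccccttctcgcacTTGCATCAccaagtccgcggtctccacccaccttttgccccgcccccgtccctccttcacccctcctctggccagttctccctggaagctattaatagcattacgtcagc
*Slc7a11* held a match on each strand, starting 66 and 47 bases before the start site, and *Atf3* held 1. Of the ATF4 stress regulators with a promoter 6 of 19 (31.6%) held a match, and of the amino acid list 6 of 22 (27.3%), beside 2.81% of tested genes.

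NRF2 targets, which handle oxidants, were lower with siRNA B in 16 of 26 tested members by adjusted p and higher in 4 (*Tkt* 0.55, *Gsta4* 1.61, *Me1* 0.32 and *Abcc1* 0.34). *Hmox1*, which degrades heme, was at 110, 100 and 104 CPM with siRNA A and 20.1, 22.3 and 20.0 CPM with siRNA B (log2 fold change -2.33, SE 0.08, adjusted p = 2.90e-12), with the Scramble KD libraries between them at 38.5 to 47 CPM. *Txnrd1*, a thioredoxin reductase, was at 642, 597 and 606 CPM and 259, 279 and 275 CPM (log2 fold change -1.18, SE 0.07, adjusted p = 1.71e-09), again on either side of the Scramble KD range of 348 to 405 CPM. The sulfiredoxin gene *Srxn1* fell from 68.9, 62.7 and 56.6 CPM to 17.2, 17.7 and 15 CPM (log2 fold change -1.91). *Slc7a11* and *Osgin1* (-1.72) were also called lower and *Gsta4* was called higher. *Osgin1* and *Gsta4* had few counts, with means of 17.8 and 15.8 per library. Between the Scramble siRNAs *Osgin1* differed by -1.3, and its departure from that did not pass (-0.42, adjusted p = 0.619), whereas that of *Gsta4* did (2.66, adjusted p = 0.00135). The siRNA A mean was above the Scramble KD range in 16 of the 26 members, and that of siRNA B in 2.

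Genes of protein turnover followed with small differences. Of 46 tested genes of lysosome and autophagy 31 were lower by adjusted p and 4 higher (*Ulk1* 0.91, *Atg9b* 0.38, *Tfeb* 0.68 and *Npc1* 0.94), with a median of -0.42. *Gla*, the lysosomal alpha-galactosidase, was called lower (43.4, 37.3 and 40.5 CPM with siRNA A and 18.2, 18.3 and 16.5 CPM with siRNA B). Of 45 proteasome genes 23 were lower and none higher by adjusted p (median -0.23), with *Psmd8* called (-1.05). Without B1, 16 proteasome genes were lower and 1 higher by adjusted p. In the endoplasmic reticulum 13 of 30 folding genes were lower and 5 higher by adjusted p, and *Atf6* (-1.03), a sensor of unfolded proteins, and the cochaperone gene *Dnajb9* (-1.11) were called lower.

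**Figure D3:**
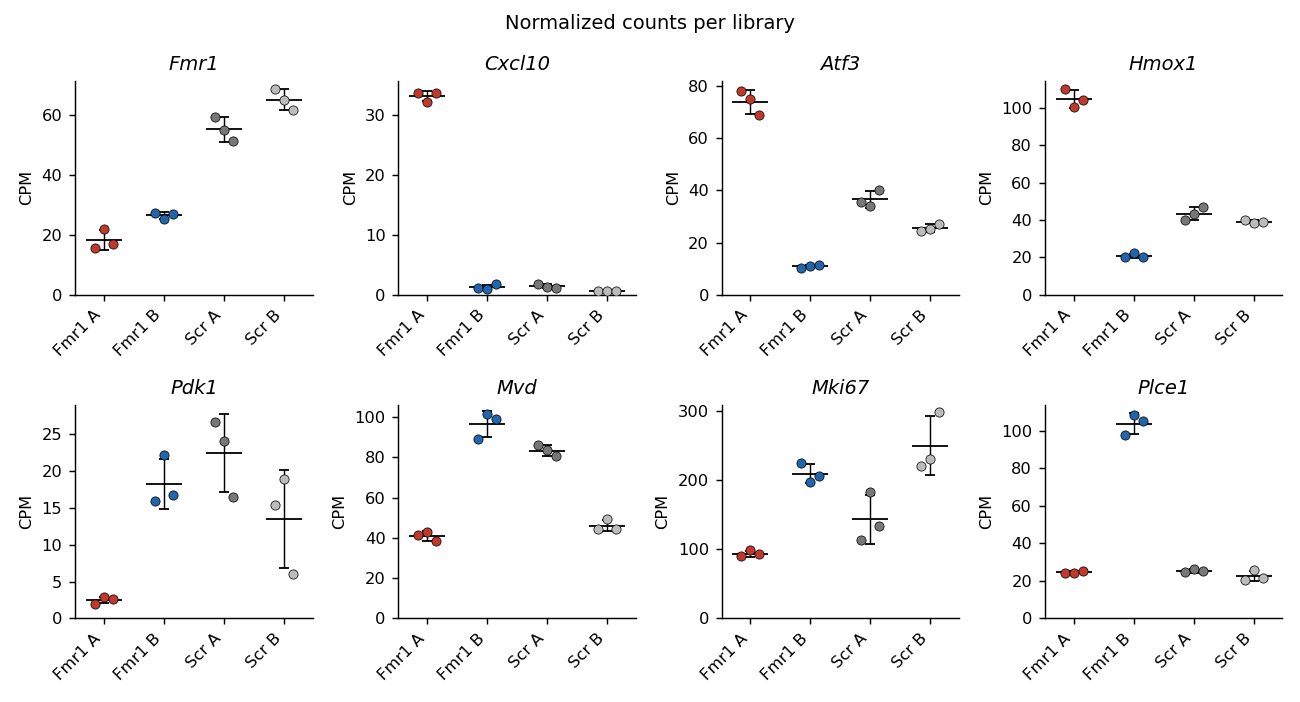
CPM of 8 genes in each library (vertical axes, from 0) for *Fmr1* siRNA A (red), *Fmr1* siRNA B (blue), Scramble siRNA A (dark grey) and Scramble siRNA B (light grey); points are libraries, the long line is the mean and the error bar the SD of 3. *Cxcl10* is high only with siRNA A, *Plce1* only with siRNA B, *Pdk1* is low only with siRNA A, and *Atf3* and *Hmox1* are high with siRNA A and low with siRNA B.

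In the other direction, the largest rise among called genes with a mean of at least 50 counts that kept their call without B1 was in *Pdk1* (2:71703488-71734202 on GRCm39), the kinase that closes pyruvate dehydrogenase when oxygen is short. It was at 2.03, 2.92 and 2.59 CPM with siRNA A and 15.9, 22.2 and 16.7 CPM with siRNA B (log2 fold change 2.86, SE 0.18, adjusted p = 4.20e-09). The siRNA B libraries were within the wide Scramble KD range of 6.07 to 26.7 CPM and the siRNA A libraries below it. Other genes of glycolysis and the response to hypoxia rose with it. The hexokinase gene *Hk2* was at 91.4, 98.1 and 101 CPM with siRNA A and 193, 215 and 212 CPM with siRNA B (log2 fold change 1.09). *Bnip3*, a mitophagy receptor, was at 28.4, 32.1 and 34.1 CPM and 79.7, 119 and 104 CPM (log2 fold change 1.68, SE 0.12, adjusted p = 1.31e-08). *P4ha2* (1.22), *Slc2a1* (1.2), the main glucose transporter, and *Aldoc* (1.24) were also called higher.

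Of 40 tested members of this list 8 were called higher and 1 lower (*Angptl4* -2.12). By adjusted p 28 were higher and 2 lower (*Angptl4* and *Ero1a* -0.75), with a median of 0.49. Without B1, 10 were called higher. The siRNA A mean was below the Scramble KD range in 33 of the 40 and the siRNA B mean in 16, and against the Scramble KD libraries the medians were -0.98 with siRNA A and -0.41 with siRNA B. These 2 medians share the same Scramble KD libraries.

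Sterol genes were higher with siRNA B nearly throughout. *Mvd*, an enzyme of the mevalonate pathway, was at 41.4, 43 and 38.4 CPM with siRNA A and 88.9, 101 and 98.7 CPM with siRNA B (log2 fold change 1.24, SE 0.08, adjusted p = 4.20e-09). All siRNA B libraries were above the Scramble KD range of 44.2 to 85.9 CPM and all siRNA A libraries below it. *Nsdhl* (1.45), *Tm7sf2* (1.09), *Acat2* (1.05) and *Cyp51* (1.02), enzymes of the same route, were also among the 6 of 26 members that were called. By adjusted p 23 were higher and *Ggps1* (-0.42) was lower. B1 had the lowest value of the siRNA B libraries in *Mvd*, *Acat2*, *Cyp51* and *Tm7sf2*, and without it 8 members were called. Scramble siRNA B against A had a median of -0.61, beside 0.78 for the *Fmr1* siRNAs. The departure of the *Fmr1* difference from the Scramble difference passed in 23 of the 26.

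Genes of fatty acid synthesis were higher with siRNA B by smaller amounts, with 14 of 21 members higher and none lower by adjusted p (median 0.41, and -0.23 between the Scramble siRNAs). The stearoyl-CoA desaturase gene *Scd2* was at 1360, 1460 and 1340 CPM with siRNA A and 2670, 3210 and 3050 CPM with siRNA B (log2 fold change 1.1). *Acss2* (1.1), which makes acetyl-CoA from acetate, and *Scd1* (1.17) were called with it, and without B1 there were 6 calls.

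A pair of genes of lipid signalling held the lowest p of the rises. *Plce1* (19:38469411-38773474 on GRCm39), a phospholipase C that Ras activates, was at 24.1, 24.4 and 25.2 CPM with siRNA A and 97.5, 109 and 105 CPM with siRNA B (log2 fold change 2.08, SE 0.08, adjusted p = 7.01e-12). The siRNA A libraries were within the Scramble KD range of 20.7 to 26.6 CPM and the siRNA B libraries far above it. *Sgpp1*, which removes the phosphate of sphingosine 1-phosphate, was at 22.2, 21.3 and 21.3 CPM and 86.6, 102 and 99.5 CPM (log2 fold change 2.15, SE 0.08, adjusted p = 1.33e-11). There the Scramble KD range of 35.3 to 43.4 CPM lay between the siRNAs. Others of the 12 largest rises encode proteins of the cell surface and matrix, namely *Npnt* (2.53), *Mmp15* (1.92), *Eln* (1.84), *Rtn4rl1* (1.87) and the growth factor *Tgfb3* (1.93). *Kbtbd11* (2.24), *Pxylp1* (2.14), which acts on proteoglycan linkers, and the nuclear receptor gene *Nr4a3* (1.95) were the remaining ones beside *Lfng*.

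*Lfng*, the glycosyltransferase that tunes Notch receptors, was at 6.10, 7.33 and 9.03 CPM with siRNA A and 26, 30.4 and 26.9 CPM with siRNA B (log2 fold change 1.9, SE 0.13, adjusted p = 1.34e-08). The ligand gene *Jag2* rose with it, from 34.8, 31.1 and 36 CPM to 85, 86.4 and 88.4 CPM (log2 fold change 1.35, SE 0.08, adjusted p = 1.69e-09). *Notch3* (1.16), a receptor, and the target genes *Hey2* (1.76) and *Hes5* (1.73), both at low counts, were called as well. For *Hey2* and *Hes5* the departure from the Scramble siRNAs did not pass (adjusted p = 0.376 and 0.15). Of 20 tested Notch genes 10 were higher and none lower by adjusted p (median 0.66), and the siRNA A mean was below the Scramble KD range in 11 of them. In the Wnt list 16 of 27 were higher and 2 lower (*Znrf3* -0.33 and *Fzd6* -0.36) by adjusted p, with the ligand genes *Wnt3* (1.44), *Wnt5a* (1.09), *Wnt7b* (1.92) and *Wnt11* (1.87) and the secreted inhibitor *Notum* (2.36) called higher. *Wnt7b*, *Wnt11* and *Notum* were also at low counts, with means of 22.8, 17.5 and 23 per library. Between the Scramble siRNAs *Wnt7b* differed by 1.61, and its departure from that did not pass (0.31, adjusted p = 0.661), whereas those of the other called members did.

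Genes of axon guidance were higher with siRNA B. *Nrp1*, a receptor for semaphorins and VEGF, was at 35.1, 38.2 and 38.7 CPM with siRNA A and 93.6, 107 and 107 CPM with siRNA B (log2 fold change 1.47, SE 0.08, adjusted p = 9.91e-10). *Slit1*, a repellent for growing axons, was at 14, 11.3 and 14.3 CPM and 28.6, 31.6 and 29.4 CPM (log2 fold change 1.18). Of 40 tested axon guidance genes 7 were called higher, 30 were higher and 2 lower (*Plxna4* -0.28 and *Sema4b* -0.38) by adjusted p, and the median was 0.46, beside -0.44 between the Scramble siRNAs. In 29 of the 40 the difference was more positive than that between the Scramble siRNAs. Other neuronal lists were mixed. Of 43 tested genes of neuronal cytoskeleton and synapse 17 were higher, 7 lower and 19 did not pass by adjusted p (median 0.17), and the single call was lower, *Stmn4* (-1.06). Without B1, *Stmn4* was not called (-0.93). Of 13 granins and neuropeptides 2 were higher and 3 lower (median -0.016), with *Ppy* called lower (-1.33), and of 19 receptors for glutamate, GABA and acetylcholine 5 were higher, none was lower and 14 did not pass. The departure from the Scramble siRNAs did not pass for *Stmn4* (0.24, adjusted p = 0.476) or *Ppy* (-0.13, adjusted p = 0.889).

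Among the markers of the noradrenergic lineage, *Ret*, the receptor for GDNF ligands, was at 645, 709 and 662 CPM with siRNA A and 1270, 1580 and 1400 CPM with siRNA B (log2 fold change 1.08, SE 0.08, adjusted p = 3.70e-08). Scramble siRNA B was also above Scramble siRNA A in *Ret* (log2 fold change 0.77, adjusted p = 1.14e-05), and the departure from it did not pass (0.31, adjusted p = 0.135). *Isl1*, a transcription factor of sympathetic neurons, was at 15.6, 17.2 and 18.1 CPM and 35, 38.2 and 36.8 CPM (log2 fold change 1.12, SE 0.09, adjusted p = 1.08e-07). *Th* (1.04), the enzyme that commits tyrosine to catecholamines, and *Dbh* completed the 4 of 20 that were called, and 7 were called without B1. By adjusted p 8 were higher and *Gata2* (-0.25) was lower.

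Ion channels followed. Potassium channels were higher in 17 of 39 and lower in *Kcnj9* (-0.61) alone by adjusted p, with *Kcnj12* at 10.4, 10.1 and 10.4 CPM and 26.7, 29.2 and 29.5 CPM (1.46) and *Kcnc1* (1.07) among 5 called. Voltage-gated calcium and sodium channels were higher in 14 of 23 and lower in none by adjusted p. The T-type calcium channel gene *Cacna1i* was at 31.2, 32.3 and 32.4 CPM and 77.4, 81.3 and 70.6 CPM (log2 fold change 1.26, SE 0.08, adjusted p = 4.20e-09). The call of *Cacna1a* rests on B1, since its siRNA B libraries were at 14.6, 6.54 and 6.81 CPM and it was not called without B1 (log2 fold change 0.82). The AMPA receptor subunit gene *Gria2* was also called higher, at 21.9, 20.9 and 20.5 CPM and 50.1, 52.3 and 53.3 CPM.

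Mitotic genes were higher with siRNA B as a block, and a difference of like size lay between the Scramble siRNAs. *Top2a*, which untangles replicated chromosomes, was at 287, 312 and 278 CPM with siRNA A and 631, 610 and 626 CPM with siRNA B (log2 fold change 1.09, SE 0.07, adjusted p = 4.29e-09). *Mki67*, a marker of cycling cells, was at 90.1, 98.8 and 93.4 CPM and 225, 197 and 207 CPM (log2 fold change 1.16, SE 0.07, adjusted p = 3.88e-09). *Cdk1*, the kinase that drives mitosis, was at 57.5, 60.0 and 54.6 CPM and 135, 133 and 112 CPM (log2 fold change 1.15). In all 3 the siRNA A libraries were below the Scramble KD range and the siRNA B libraries within it. In bulk RNA, fewer cycling cells and less of these mRNAs per cell cannot be told apart.

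Of 55 tested mitosis genes 17 were called higher and 53 were higher by adjusted p, with a median of 0.87. Without B1, 10 were called and 53 passed. Scramble siRNA B against A gave a median of 0.81, and the difference between the *Fmr1* siRNAs departed from it in 4 members upwards (*Plk1*, *Dlgap5*, *Ccnb2* and *Kif20a*) and 2 downwards (*Ncaph* and *Melk*). In DNA replication 39 of 52 genes were higher and none lower by adjusted p, with *Cdc6* (1.38), *Clspn* (1.25) and *Rrm2* (1.04) called. The median was 0.48 against 0.71 between the Scramble siRNAs, and in 11 members the difference was smaller than theirs. Histone genes that are expressed in S phase were higher in 31 of 50 and lower in *H4c14* (-0.33) by adjusted p. Their median was 0.56, against 0.43 between the Scramble siRNAs. In none did the difference between the *Fmr1* siRNAs depart from that between the Scramble siRNAs at an adjusted p under 0.05.

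The promoter of *Mki67* (chr7:135716380-135716629, minus strand) is shown as a member of this block, with matches to TTTGAA, the cell cycle homology region bound by the repressor complex of non-dividing cells, in capitals on either strand:
Mki67: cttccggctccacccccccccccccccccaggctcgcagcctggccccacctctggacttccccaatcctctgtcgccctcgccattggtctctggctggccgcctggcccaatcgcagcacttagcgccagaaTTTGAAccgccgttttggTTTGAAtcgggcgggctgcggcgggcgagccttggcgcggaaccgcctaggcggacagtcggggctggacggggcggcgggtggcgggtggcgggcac
It held 2 matches, 116 and 98 bases before the start. Of the 45 mitosis genes with a promoter 33 (73.3%) held a match, beside 14.6% of tested genes.

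**Figure D4:**
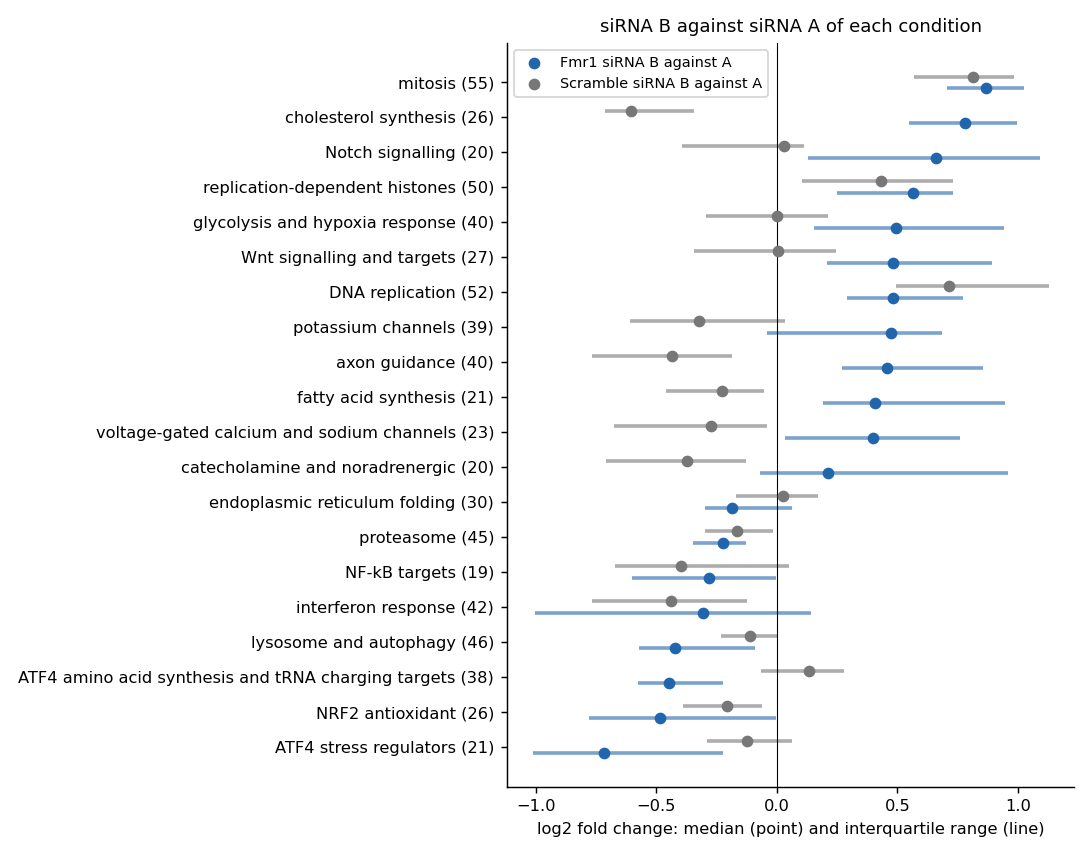
Median (point) and interquartile range (line) of the log2 fold change of siRNA B against siRNA A over the tested members of 20 gene lists, with the number tested in brackets, for the *Fmr1* siRNAs (blue) and the Scramble siRNAs (grey). The pairs lie together for mitosis (0.87 and 0.81) and on opposite sides of 0 for cholesterol synthesis (0.78 and -0.61) and axon guidance. The side of the grey points depends on which Scramble siRNA is called A.

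The Scramble siRNAs give the difference between a pair of control siRNAs in these cells. The siRNA sequences were not used here, and whether libraries of the same letter share anything across conditions was not tested. Scramble siRNA B against A gave 268 genes called higher (1.41% of 19003) and 394 called lower (2.07%). Of the genes called higher between the *Fmr1* siRNAs 44 (6.97%) were also called higher between the Scramble siRNAs, which is 16.4% of the latter, and 37 were called lower there. Of those called lower, 15 (8.82%) were called lower there, 3.81% of the latter. In a fit of all 18 libraries the difference between the *Fmr1* siRNAs departed from that between the Scramble siRNAs at an adjusted p under 0.05 in 2209 genes upwards (11.6%) and 1683 downwards (8.86%). Of the 631 genes called higher 370 (58.6%) departed upwards, and of the 170 called lower 79 (46.5%) departed downwards. The calls were selected on the *Fmr1* difference that enters this test, which by itself favours these shares. *Pdlim3*, named after its value was seen, was the single gene called lower that departed upwards.

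Set against the Scramble KD range, the calls came from both siRNAs. Of the 631 genes called higher with siRNA B, 244 had the siRNA A mean below the range and the siRNA B mean within it, 160 had siRNA A within and siRNA B above, and 137 had siRNA A below and siRNA B above. A further 72 had both within the range and 18 had both on the same side of it. Of the 170 genes called lower, 79 had siRNA A above the range and siRNA B within, 37 had siRNA A within and siRNA B below, 29 had both outside on opposite sides, 12 both within and 13 both on the same side.

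**Figure D5:**
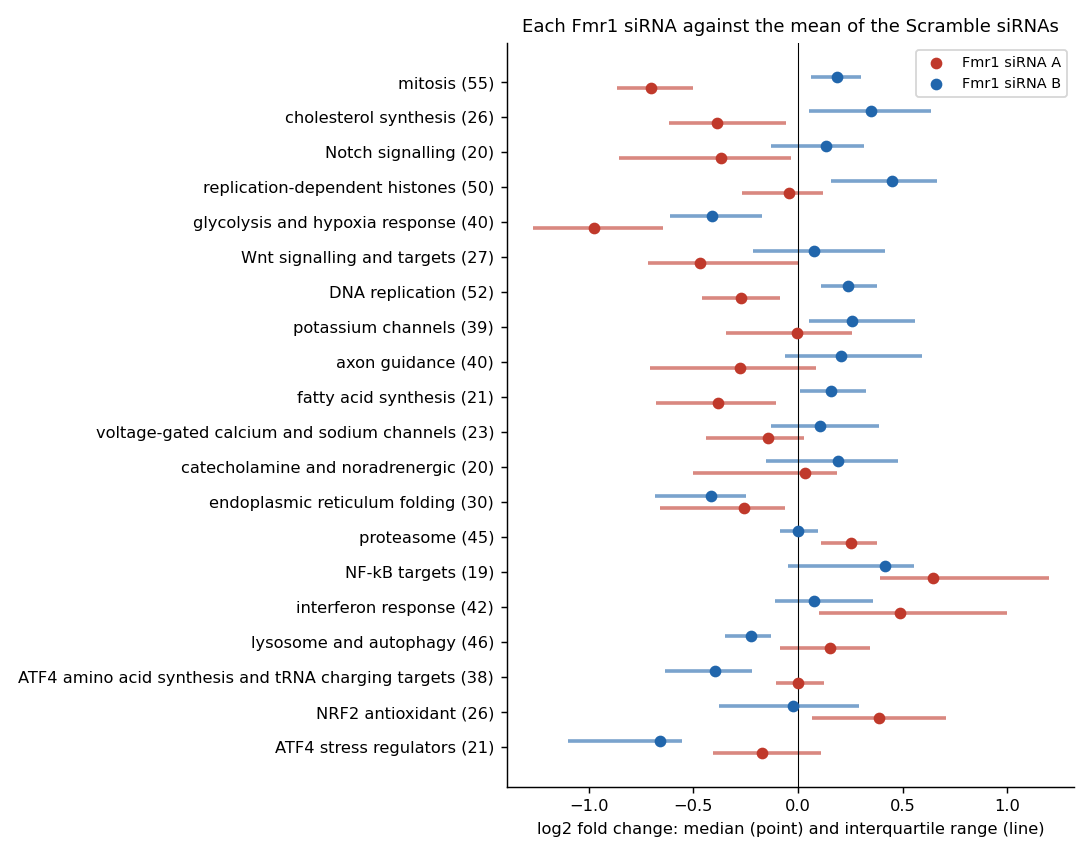
Median (point) and interquartile range (line) of the log2 fold change of *Fmr1* siRNA A (red) and *Fmr1* siRNA B (blue) against the mean of the Scramble siRNAs over the tested members of the same 20 lists; both share the Scramble KD libraries. Interferon genes lie right of 0 with siRNA A (0.49) and near it with siRNA B (0.08), whereas ATF4 stress regulators lie left of 0 with siRNA B (-0.66) and nearer to it with siRNA A (-0.17).

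Further lists are given beside the 4.51% of all tested genes that were called in either direction. No member of the 84 tested cytosolic ribosomal proteins was called (median -0.18, with 25 lower and 5 higher by adjusted p), nor of the 51 translation factors (median -0.14, 20 lower and 7 higher) or the 33 chaperones (median -0.12). Without B1, 16 ribosomal protein genes were lower and 5 higher by adjusted p, and 15 translation factors were lower and 8 higher. Of 39 genes of ribosome biogenesis 23 were lower by adjusted p, and *Mycn*, the amplified driver of many neuroblastomas, was called higher (25.3, 23.1 and 31.2 CPM with siRNA A and 51.7, 60.9 and 63.7 CPM with siRNA B). Of 26 p53 targets 13 were lower and 6 higher by adjusted p, with *Plk3* (-1.04) called lower and *Psrc1* (1.8) higher. Without B1, *Plk3* was not called (-0.99). The 56 clustered protocadherins had a median of 0.07 and 1 call, *Pcdhac2* (1.16). Genes of the mitochondrial genome, at low counts here, were lower in 10 of 12 by adjusted p (median -0.91), with 3 of 12 called, *mt-Atp6* (-1.45), *mt-Nd4l* (-1.19) and *mt-Nd3* (-1.1), and 8 called without B1. The departure from the Scramble siRNAs passed in 1 of the 12. It did not pass in the 3 called (adjusted p = 0.127, 0.0826 and 0.0628), and the *mt-Nd3* libraries of the siRNAs overlapped.

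Some rises were set by replicate B1. In 28 of the 631 genes called higher B1 was more than 2 times the higher of B2 and B3, and 2 of the 28 were still called without it. *Meg3*, an imprinted noncoding RNA, was at 16.6, 3.44 and 2.68 CPM in B1 to B3 and 1.56, 2.10 and 1.04 CPM with siRNA A, and its log2 fold change went from 2.27 to 0.96 without B1. *Rian*, from the same imprinted locus, was at 46.8, 20.9 and 20.2 CPM in B1 to B3, and its log2 fold change went from 1.32 to 0.81. The pluripotency factor gene *Tfcp2l1* (24.6, 1.05 and 1.44 CPM, from 2.96 to 0.11) and the basement membrane gene *Nid2* (8.99, 0.773 and 0.275 CPM, from 2.42 to -0.25) lost their calls as well. Over all genes, 78 had at least 50 counts in B1 and more than 4 times the CPM of each of the other 17 libraries, but only 10 of them were tested and 6 called, because most were at or near 0 elsewhere. The largest were *Mme* (221 counts in B1 and 0 in B2 and B3), *Tns3* (203 and 0), *Igf2bp1* (187 and 0), *Epha4* (178 and 0), *Cobl* (114 and 0) and *Zfp998* (107 and 0), which take the 6 places by level since their ratio has a divisor of 0.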

How the data were processed

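Total RNA of N2A cells was depleted of rRNA, sequenced and, per the labels and the paper's methods, trimmed with TrimGalore, aligned to GRCm39 with STAR and counted on exons with featureCounts. The authors deposited unnormalized whole-number counts for 55414 genes. Versions, annotation release, strand setting and the treatment of multiply aligned reads are not given in the sources used here, so overlapping genes and near-identical copies have uncertain counts. GENCODE M39 gave symbols and coordinates for 54749 genes (98.8%).

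Here the 6 *Fmr1* KD libraries were fitted with edgeR 4.0.16 (R 4.3.3, TMM, filterByExpr with a minimum count of 10 and total of 15, glmQLFTest, siRNA as the only term), with Benjamini-Hochberg adjustment over all 17776 tested genes. A call needs an adjusted p under 0.05 and over 2-fold. CPM use TMM library sizes over 18 libraries, and the difference from the Scramble siRNAs was tested in a fit of 6 groups. DESeq2 1.42.0, other normalizations and filters, a robust dispersion, a replicate block and leaving out each library were alternatives. The fits were tested on simulated data.

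Named are *Fmr1*, *Fxr1*, *Fxr2*, *Zfp598*, *Id3*, *Dbh*, *Map3k8* and *Tbr1*; the 12 largest rises and falls among genes called with and without B1, with a mean of at least 50 counts and no overlap between siRNAs, apart from gene models without a proper symbol and pseudogenes; called members of the lists, at most 6 of each and not every one of these; and the 6 genes highest in B1 relative to B2 and B3. Members that moved against their list, partners of FMRP, *Angptl4*, *N4bp2*, *Ascc1*, the mitosis genes that departed from the Scramble siRNAs, *Pdlim3*, *Pou5f1*, *Zfp42* and *Sox2* are outside this rule and were chosen after their values were seen. The members, lists and rules were chosen with earlier results of these data known. Totals of 13213653 to 14005697 counts per library leave genes at a few CPM with fewer than 50 counts per library, which limits their precision.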

Additional observations from a re-analysis of the deposited data

Results flagged for a closer look

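For the 24 genes with the largest rises and falls and the 8 genes fixed by name, the difference between *Fmr1* siRNA B and A was tested against the difference between Scramble siRNA B and A (interaction term of the fit of all 18 libraries, adjusted over all genes). It passed for 23 of these genes, namely 22 of the 24 and, of the 8 fixed by name, *Dbh* alone. The 24 were chosen for a large *Fmr1* difference, which is itself part of the tested term. That choice favours passing, so their count is a description and no separate support. In log2 units the *Fmr1* difference exceeded the Scramble difference by 4.95 in *Eln*, 3.6 in *Pdk1*, 3.21 in *Mmp15*, 2.84 in *Kbtbd11*, 2.59 in *Rtn4rl1*, 2.55 in *Dbh*, 2.25 in *Plce1*, 2.22 in *Pxylp1*, 2.04 in *Sgpp1*, 2.02 in *Tgfb3*, 1.77 in *Lfng*, 1.58 in *Nr4a3* and 1.51 in *Npnt*. It was below the Scramble difference, at -3.67 in *Cxcl10*, -3.0 in *Rsad2*, -2.25 in *Atf3*, -2.19 in *Hmox1*, -1.93 in *Slc7a11*, -1.7 in *Oasl1*, -1.4 in *Isg15*, -1.28 in *Oasl2*, -1.01 in *Srxn1* and -0.86 in *Uap1l1*. For *Tnfrsf9* (-0.77, adjusted p = 0.276) and *Neurl3* (-0.11, adjusted p = 0.822) it did not pass, although both are among the 12 largest falls. In *Eln* most of the 4.95 came from the Scramble siRNAs, which differed by -3.11, against 1.84 between the *Fmr1* siRNAs. Both *Fmr1* siRNA means of *Eln* lay within the Scramble KD range of 4.14 to 46.9 CPM.

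Replicate B1 of *Fmr1* siRNA B held a summed 11.9 CPM of Y chromosome markers, which enter no comparison because they failed the filter on low counts. *Uty* had 85 counts there, *Eif2s3y* 56 and *Ddx3y* 25, and each had 0 in the other 17 libraries.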

How the results depend on the processing

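The counts of calls depended mainly on the filter and the fold criterion. Without a filter on low counts 1101 genes were called higher, and among genes with a mean of at least 50 counts 328 were called higher, 77 lower and 286 departed from the Scramble siRNAs. With a 1.5-fold criterion 1538 were higher and 736 lower, and with no fold criterion 3066 and 2850. DESeq2's test gave 520 and 139. Leaving out 1 library gave 591 to 698 genes called higher, 152 to 226 called lower and 406 to 466 that departed from the Scramble siRNAs, and an *Fmr1* log2 fold change of 0.46 to 0.71, with the highest number called lower in the absence of B1. Deviations of same-numbered libraries from the mean of their siRNA correlated at 0.012, 0.036 and 0.14. The closest partner was B1 for A1 and A2, and B3 for A3. These values do not settle whether the replicate numbers pair the libraries. With the replicate number as a block 650 genes were called higher, 182 lower and 461 departed from the Scramble siRNAs, and the *Fmr1* log2 fold change was 0.56. Leaving out 1 library turned the sign of *Id3* (-0.0099 to 0.19, negative without A2), *Map3k8* (-0.42 to 0.044, positive without A3 and without B2) and *Nid2* (-0.25 to 2.96, negative without B1). Of 1255 values for single genes under alternatives, 1239 kept their direction and their side of the threshold. No median of the 20 plotted lists changed sign in 260 values under alternatives, and 34 of them moved by more than the spread between siRNA B libraries. Without a filter the median of all genes moved to 0.103.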
